A study of Mus musculus with 4 samples.

Results

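Collagens are secreted or membrane-bound proteins whose chains wind into helical trimers, and they make up most of the protein of the extracellular matrix. Types I, III and V form fibrils, type VI forms beaded filaments beside them, and type IV forms the sheet-like network of basement membranes under endothelium and epithelium. In tumours, fibroblasts are known as the main source of fibrillar collagen, and endothelial and mural cells as sources of type IV. All genes whose symbol is Col, a number, a and a number were taken, which gave 44 genes of the 32285 in the files. Cell class and treatment played no part in the choice.

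By its title the study is about cancer immunotherapy with enzyme nanocapsules that act on T cells. Its single-cell RNA sequencing covers 2 libraries labelled Control and 2 labelled Nanocapsule treated. Every library came from tumour tissue of C57Bl6 mice of 6 to 8 weeks. The labels name neither the tumour line, the enzymes, the control agent nor which animals a library came from. Nothing in the labels says that the 2 libraries of a group are separate animals, so the p-values measure a spread that may be technical. Libraries held 1577 to 3837 cells with at least 1500 UMIs (unique molecular identifiers, each standing for 1 captured transcript molecule), and 98943390 to 140491491 UMIs in all barcodes. Cells were sorted into classes by marker UMIs. The labels call the cells cancer cells, and 71.0 to 89.3% of them carried the 8 pigment cell markers used for the tumour class (Dct, Pmel, Mlana, Tyrp1, Slc45a2, Tyr, Mitf and Sox10). The remainder included 431 macrophages, 28 fibroblasts, 21 endothelial cells and 4 mural cells, with 389 cells of other classes and 865 that met no rule. As the sorting rule fixes, fibroblast markers were high in fibroblasts: they took 8904 to 13018 of each 1000000 UMIs in fibroblasts and 0.734 to 2.66 in tumour cells. Between 1 and 13 cell barcodes were shared by any pair of libraries.

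Levels are given as CPM, the UMIs of a gene per 1000000 UMIs of the class in a library. A transcript is counted once at its 3-prime end whatever its length, so levels were not scaled by gene length. Whether different genes are captured equally well was not tested, which limits comparisons of level between genes. Where 4 values follow each other they belong to Control 1, Control 2, Nanocapsule 1 and Nanocapsule 2, in this order. Fibroblasts numbered 10, 10, 4 and 4, and endothelial cells 5, 11, 3 and 2. Values of these classes rest on few cells, and their nanocapsule effect was not fitted within the class. The interaction test given further on uses the fibroblast sums, with 4 cells in each Nanocapsule library. Free RNA in the droplets, called ambient RNA, was read from the barcodes of 1 to 50 UMIs.

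Type IV collagen genes lie in head-to-head pairs, which matters for the tumour cells below. On GRCm38, Col4a1 (chromosome 8, 11198423 to 11312826, minus strand) and Col4a2 (chromosome 8, 11312805 to 11449287, plus strand) start 21 bases apart, and their first exons overlap on opposite strands. Col4a4 (chromosome 1, 82448423 to 82586849, minus strand) starts 72 bases from Col4a3, and Col4a6 starts 1309 bases from Col4a5 on chromosome X. The stretches below, from RefSeq promoter windows on GRCm38.p6, are shown because they stand at the start of genes on which the class differences turn. Only the part outside annotated exons is given. Col4a4 is the member of its pair that tumour cells hold, Col16a1 is one of their leading collagens, and Col1a2 and Col3a1 lead the fibroblasts. Capitals mark a GC box (GGGCGG) or a TATA box (TATAAA) on either strand.
Col4a4 to Col4a3 gap, chr1:82586850-82586920, minus strand: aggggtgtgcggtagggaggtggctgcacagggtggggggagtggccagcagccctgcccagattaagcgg
Col16a1, chr4:130047590-130047661, plus strand: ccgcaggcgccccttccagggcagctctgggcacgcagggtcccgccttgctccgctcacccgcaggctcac
Col1a2, chr6:4505370-4505492, plus strand: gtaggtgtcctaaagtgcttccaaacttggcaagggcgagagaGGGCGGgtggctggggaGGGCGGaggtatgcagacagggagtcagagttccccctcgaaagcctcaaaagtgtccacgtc
Col3a1, chr1:45311288-45311537, plus strand: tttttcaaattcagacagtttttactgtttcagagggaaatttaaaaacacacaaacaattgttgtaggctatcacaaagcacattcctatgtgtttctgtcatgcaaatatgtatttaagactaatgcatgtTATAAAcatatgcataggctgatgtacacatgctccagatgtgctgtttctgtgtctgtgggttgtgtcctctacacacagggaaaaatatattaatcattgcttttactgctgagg

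RefSeq windows of 300 bases were given for 35 of the 44 collagens, as 38 windows. GGGCGG was present in 23 of the 38 windows (60.5%) and in 35.7% of all 32851 windows of that length. CCAAT was present in 34.2% of the collagen windows and 37.4% of all, and TATAAA in 13.2% and 13.6%. The GC content of the stretches ranged from 35.2% at Col3a1 to 75.0% at Col16a1. The full window of Col16a1 held GGGCGG and CCAAT, both outside the stretch shown. That of Col1a2 also held GGGCGG and CCAAT, that of Col3a1 held only TATAAA, and that of Col4a4 held none of these motifs.

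The first question was which cells hold collagen RNA. Fibroblasts were 0.174 to 0.543% of cells, yet they held 38.6%, 36.0%, 22.4% and 24.2% of the collagen UMIs found in cells of the 4 libraries. Tumour cells, 71.0 to 89.3% of cells, held 55.9%, 46.9%, 71.2% and 57.9%. Endothelial cells held 3.37 to 6.14%, and the 1 mural cell (pericyte or smooth muscle) of Nanocapsule 2 alone held 13.1%. Macrophages held at most 0.197% in any library, although they were 3.10 to 7.17% of cells. The 22 barcodes that carried markers of the tumour class and of another class were left out of all classes, and held 1692 collagen UMIs against 45379 in tumour cells.

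**Figure D1:**
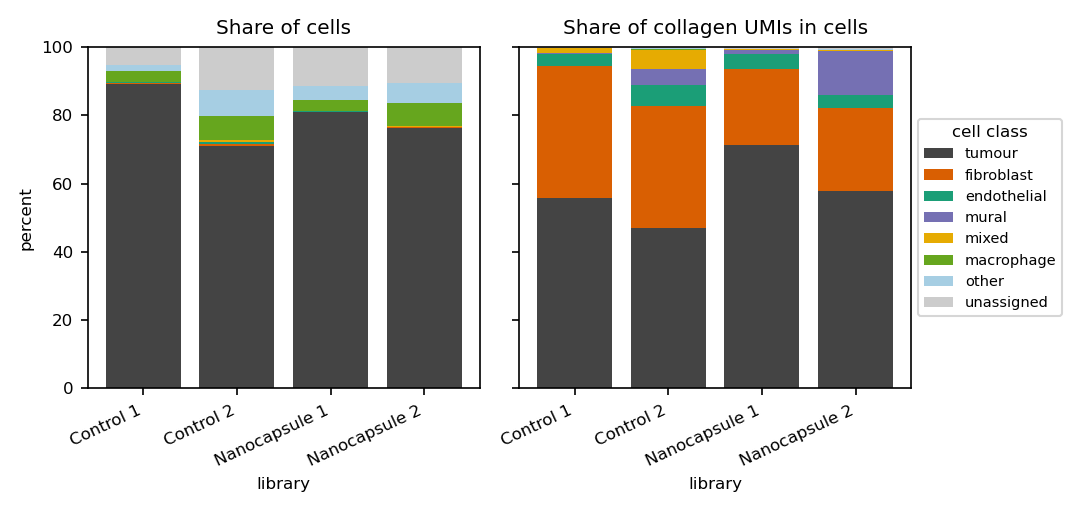
Share of cells (left, percent) and share of the collagen UMIs in cells (right, percent) by cell class, one bar per library. Fibroblasts, 0.174 to 0.543% of cells, hold 22.4 to 38.6% of collagen UMIs, and tumour cells hold 46.9 to 71.2%.

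As a sum over all 44 genes, collagens came to 86995, 60283, 51202 and 43440 CPM in fibroblasts, which is 4.34 to 8.70% of all their RNA. Endothelial cells followed with 13798, 8934, 18589 and 8540. Tumour cells had 112, 127, 116 and 105, and macrophages 10.9, 29.6, 4.19 and 7.76. Ambient RNA had 205, 354, 177 and 232. The order of the classes was the same in all 4 libraries, and no 2 classes overlapped. The 4 mural cells ranged from 1.37 to 4.47% collagen, a range that overlaps the 0.261 to 14.6% of single fibroblasts.

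At a level of at least 5 CPM in at least 2 libraries, tumour cells had 6 of the 44 collagens, fibroblasts 22, endothelial cells 6 and macrophages 0. Together these were 24 genes. Col4a4 reached the level only in tumour cells and Col13a1 only in endothelial cells, and this statement concerns levels, not a test. The other 20 collagens reached it in no class, and 15 of the 44 had no UMI in any fibroblast. One UMI is worth more than 5 CPM in every fibroblast and endothelial sum, the largest being 136573 and 157381 UMIs. Absence from fibroblasts is thus a weak statement, and so is presence at this level. Col8a1 reached it in endothelial cells with 11 UMIs in Control 2 and 1 in Nanocapsule 1. Col4a5 reached it in fibroblasts with 5 UMIs in all. Tumour sums held at least 84419677 UMIs, so the counts of genes per class rest on unlike numbers of UMIs.

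**Figure D2:**
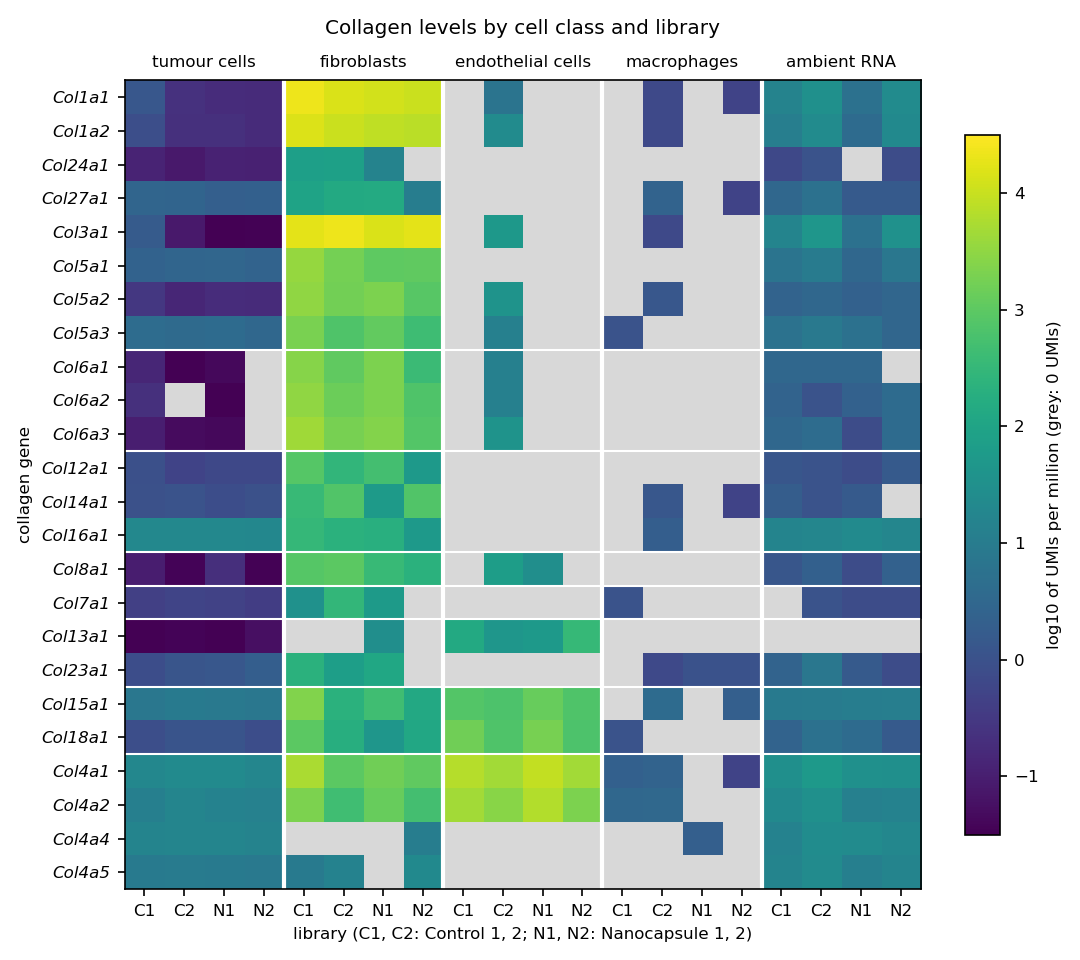
Levels of the 24 named collagens (rows, grouped by structural type) in 4 cell classes and in ambient RNA (column blocks of 4 libraries), as log10 of CPM, with grey where no UMI was counted. Fibrillar and beaded-filament genes are bright in fibroblasts, Col4a1, Col4a2, Col15a1 and Col18a1 in fibroblasts and endothelial cells, and Col4a4 is seen mainly in tumour cells and ambient RNA.

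Tumour cells held basement membrane and fibril-associated collagens at a low, even level. The 6 genes were Col4a1, Col4a2, Col4a4, Col4a5, Col15a1 and Col16a1, and they made up 73.9 to 78.8% of the tumour cells' collagen UMIs. Type IV alone made up 49.8 to 54.7%. Col16a1, a fibril-associated collagen, was at 19.7, 20.5, 19.8 and 19.3 CPM. Col4a1, one of the 2 chains of the common type IV network, was at 18.5, 23.6, 23.2 and 18.1, and its partner Col4a2 at 12.3, 17.4, 14.2 and 13.5. For each of these 3 genes the Control and Nanocapsule values overlapped. Col4a4, a chain of the network known from the glomerular basement membrane, was at 15.99, 16.7, 16.8 and 15.4. Col4a5, which joins the same network, was at 8.88, 10.1, 8.82 and 8.41. Col15a1, a proteoglycan-like collagen of basement membrane zones, was at 7.50, 9.17, 8.27 and 7.65. In the order by mean, Col4a1 and Col16a1 overlapped, as did Col4a4 and Col4a2, and Col4a5 and Col15a1.

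The head-to-head pairs were not held evenly. Of Col4a1 and Col4a2, tumour cells had both, at 1.34 to 1.64 Col4a1 UMIs for each Col4a2 UMI. Of the Col4a4 and Col4a3 pair, whose gap is printed above, tumour cells had 6410 Col4a4 UMIs and 35 Col4a3 UMIs. Of the Col4a5 and Col4a6 pair they had 3569 and 39. Col4a3 and Col4a6 therefore stayed at or below 0.138 CPM in every library. Reads from overlapping ends of Col4a1 and Col4a2 could be told apart only by strand, but 3-prime counting reads the far ends of these genes.

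More tumour cells had a UMI of these genes than macrophages did at the same depth. After every cell was thinned to 5000 UMIs, Col4a4 was seen in 7.86%, 7.53%, 6.82% and 8.29% of the tumour cells of the 4 libraries. It was seen in 0 of 76, 0 of 110, 1 of 65 and 0 of 102 macrophages, and 0 of 76 allows up to 3.95%. Without thinning, the shares in tumour cells were 39.6 to 51.2% at median depths of 37194 to 79768 UMIs, against 0 to 2.70% in macrophages at 6220 to 13838 UMIs. Col16a1 was seen in 8.20 to 10.2% of thinned tumour cells and Col4a1 in 8.05 to 10.1%. Cells under 5000 UMIs were left out, 141 to 227 tumour cells a library. These intervals and limits cover counting error only.

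Summed over the 4 libraries, macrophages had 2 UMIs of Col4a4, 3 of Col16a1, 0 of Col4a5, 7 of Col4a1, 8 of Col4a2 and 10 of Col15a1 among 5326691. In one edgeR quasi-likelihood fit over libraries and classes, 6 of the 27 collagens tested were higher in tumour cells than in macrophages and 0 lower. Of all 12832 genes tested, 38% were higher in that comparison, so the share of collagens was not above the share of genes at large. The 6 were Col16a1, Col4a1, Col4a4, Col4a5, Col5a1 and Col5a3. Col16a1 was higher by 4.76 on the log2 scale (SE 0.47, adjusted p = 7.31e-11) and Col4a4 by 5.05 (SE 0.55, adjusted p = 1.05e-09). Both were higher in 4 of 4 libraries. This comparison was added after the data were seen.

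**Figure D3:**
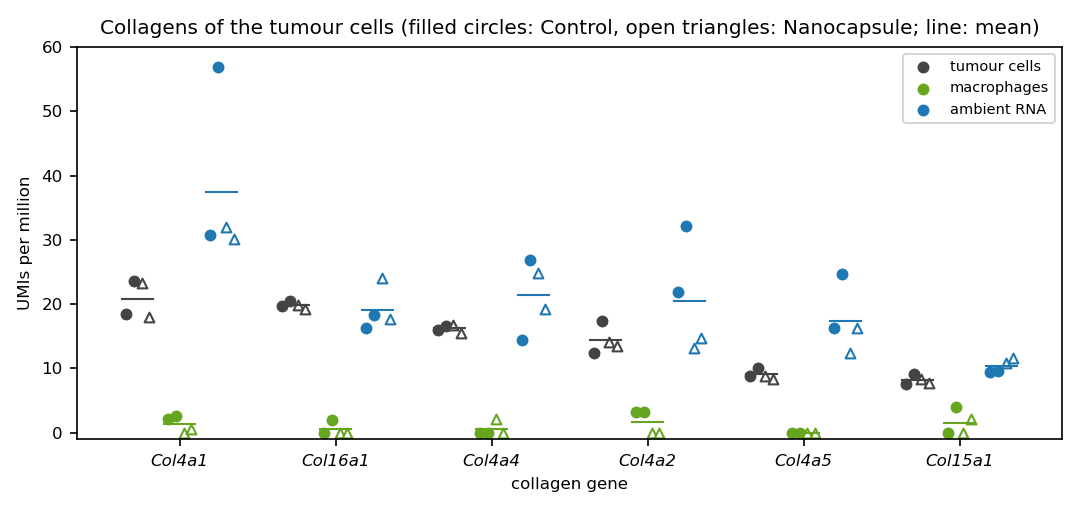
Levels in CPM of the 6 collagens of tumour cells, in tumour cells, macrophages and ambient RNA, one point per library and a line at the mean. Macrophages lie at 0 to 3.95 for all 6, and the tumour cells at 7.50 to 23.6.

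A gene was counted as higher than ambient RNA if its adjusted p was under 0.05 and its level was above the ambient level in each library of the class. A count of lower genes used the adjusted p alone. Against ambient RNA, none of the 27 collagens was higher in tumour cells, where 15% of all genes tested were, and 8 were lower, where 15.3% were. The 8 were Col1a1, Col1a2, Col3a1, Col4a5, Col5a2, Col6a1, Col6a3 and Col8a1. At an unadjusted p under 0.05 by edgeR, 9 collagens were lower and 0 higher, and 5383 of the 12832 genes passed in either direction. Ambient RNA itself resembled tumour cells: the 8 pigment cell markers stood in tumour cells at 80.4 to 161% of their ambient level (median 103%). The 6 collagens stood at 53.5 to 104% (median 74.6%), from Col4a5 at 53.5% to Col16a1 at 104%. Haemoglobin genes, which tumour cells should lack, stood at 2.46 to 3.23%, and Col1a1, Col1a2 and Col3a1 at 3.02%, 2.82% and 2.42%. The last 3 genes thus lay in or just under the range of haemoglobin genes, and the 6 lay far above it. Among genes taken as foreign to tumour cells, Fbln1 (113%), Egfl7 (163%) and Ctsc (62.9%) were exceptions, with 9116 to 30128 UMIs in tumour cells.

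The fibrillar UMIs in the tumour class came mostly from a few barcodes of 1 library. Col1a1, Col1a2 and Col3a1 together had 498, 44, 39 and 33 UMIs in the tumour cells of the 4 libraries. In Control 1, 12 barcodes held 441 of the 498 (88.6%), and 10 of these 12 had under 0.5% mitochondrial UMIs. In these 12 barcodes fibroblast markers came to 7.82 and macrophage markers to 2.24 per 10000 UMIs, beside 108 for tumour markers. Without barcodes of 10 or more such UMIs, the 3 genes came to 0.446, 0.521, 0.414 and 0.371 CPM in the 4 libraries. That was 1.02%, 0.512%, 2.80% and 0.450% of their ambient level.

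Tumour cells also held, at up to 3.90 CPM a gene, collagens known from cartilage, where types II, IX and XI form fibrils together. These genes fall outside the rule for named genes and were chosen after their values were seen. Col2a1, Col9a1, Col9a2, Col9a3, Col11a1 and Col11a2 summed to 7.73, 10.9, 6.17 and 5.77 CPM. In UMIs, tumour cells had 3006 of them among 395792114, macrophages 13 among 5326691, fibroblasts 2 among 407788 and endothelial cells 1 among 326060. As levels, macrophages were at 2.18, 5.92, 0 and 1.03 CPM, fibroblasts at 8.74, 7.32, 0 and 0, and endothelial cells at 0, 0, 0 and 14.1. So few UMIs cannot show whether fibroblasts or endothelial cells differed from tumour cells. In tumour cells Col2a1 stood at 62.9% and Col11a2 at 59.2% of the ambient level, and in macrophages at 17.4% and 47.9%. The rest of these genes had at most 8 ambient UMIs each, too few for such a ratio. A level above free RNA was thus not shown for these genes in tumour cells. For the sum in tumour cells, the 2 Control values were both above the 2 Nanocapsule values. The sum includes Col2a1 and Col9a1, whose falls are given further on, so this separation is no separate result. Of all genes tested in tumour cells, 16.5% were lower in Nanocapsule without overlap.

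Among fibroblasts, tumour cells, endothelial cells and macrophages, fibroblasts held collagens of types I, III and V at the highest level. The 1 mural cell of Nanocapsule 2 had Col1a1 at 13458 CPM and Col5a1 at 2264, above the fibroblasts of that library. Its Col1a2 (6962) and Col3a1 (3132) were below them. Col1a1, the major chain of type I collagen, was at 21703, 14132, 12210 and 10629 CPM. Col1a2, the other chain of type I, was at 15106, 10427, 8444 and 7490. Col3a1, of the type III fibrils found beside type I, was at 17736, 22589, 14751 and 18075. These 3 genes made up 62.7 to 83.3% of the fibroblasts' collagen UMIs. The ratio of Col1a1 to Col1a2 was nearly fixed, at 1.44, 1.36, 1.45 and 1.42. In tumour cells the 3 genes were at 0.0212 to 1.65 CPM, so the level of Col1a1 in fibroblasts was 15996 to 67723 times that in tumour cells of the same library.

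Type V collagen, which joins type I fibrils and limits their width, followed. Col5a1 was at 3469, 1750, 1031 and 1080 CPM in fibroblasts. Its partners Col5a2 and Col5a3 ranged over the libraries from 868 to 3189 and from 434 to 1983. Tumour cells held the type V genes unevenly, with Col5a3 at 3.13 to 4.08, Col5a1 at 2.48 to 3.08 and Col5a2 at 0.142 to 0.296 CPM. The ratio of Col5a1 to Col5a2 was 0.486 to 1.24 in fibroblasts and 8.37 to 19.8 in tumour cells, with no overlap. Col27a1 and Col24a1, also fibrillar, were lower in level. Col27a1 ranged from 11.1 to 149 in fibroblasts and from 2.09 to 2.90 in tumour cells, and Col24a1 from 0 to 80.5 and from 0.0829 to 0.125.

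The 3 chains of type VI collagen were close to each other in fibroblasts. Col6a3 was at 4316, 1838, 2406 and 801 CPM, Col6a2 at 3198, 1420, 2107 and 712, and Col6a1 at 2569, 1106, 2122 and 390. All 3 were highest in Control 1 and lowest in Nanocapsule 2. In tumour cells none of them exceeded 0.218 CPM in any library, and Nanocapsule 2 had no UMI of any. The 1 mural cell of Nanocapsule 2 had Col6a3 at 2963, Col6a2 at 1375 and Col6a1 at 1312 CPM, above the fibroblasts of that library. That of Control 2 was above them for Col6a3 (2131) and Col6a1 (1580) and below for Col6a2 (882). Those of Control 1 and Nanocapsule 1 were below for all 3 genes. Col6a4, Col6a5 and Col6a6, the alternative chains, had 4, 4 and 35 UMIs in all cells together.

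Among fibril-associated collagens, Col12a1 ranged in fibroblasts from 55.7 to 839 CPM and Col14a1 from 59.8 to 747. Col16a1 was at 306, 220, 194 and 55.7, which is 2.88 to 15.5 times its level in tumour cells, the smallest such ratio among the 15 genes with a UMI in both classes in every library. Col8a1, a short-chain network collagen of vessel walls, was at 813, 959, 344 and 211. Col7a1, the anchoring fibril collagen, ranged from 0 to 293 and Col23a1, a membrane-spanning collagen, from 0 to 218. Both were at 0 in Nanocapsule 2, where 3 UMIs would come to 33.4 CPM.

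Fibroblasts also held basement membrane collagens, in part through single cells. Col4a1 was at 5504, 974, 1569 and 1102 CPM and Col4a2 at 2123, 447, 1285 and 501. Col15a1 was at 2368, 220, 463 and 134, and Col18a1, whose fragment is endostatin, at 970, 183, 44.8 and 122. Control 1 stood above the other libraries for all 4 genes. One cell of that library, with 25696 UMIs, held 473 of the 630 Col4a1 UMIs (75.1%) and 194 of the 271 Col15a1 UMIs (71.6%), together with 31 UMIs of 3 mural markers. Without the fibroblast richest in Col4a1 in each library, an alternative added after seeing the data, Col4a1 came to 1769, 524, 1031 and 138 CPM.

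Single fibroblasts differed in their counts of Col14a1 and Col4a1. Of the 28 cells, 11 had at least 5 UMIs of Col14a1, a collagen on the surface of interstitial fibrils, and their median Col4a1 count was 1 UMI. Another set of 8 cells had at least 20 Col4a1 UMIs, with a median of 1.5 Col14a1 UMIs, and 1 cell was in both sets. Mural markers had a UMI in 6 of the 8 Col4a1-rich cells and in 2 of the 11 Col14a1-rich cells. These limits were chosen after the values were seen. They are raw counts in cells of 2852 to 31692 UMIs, so depth bears on which cells pass. Whether the cells form separate kinds was not tested. The part of mural cell RNA in the Col4a1-rich cells was not tested.

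**Figure D4:**
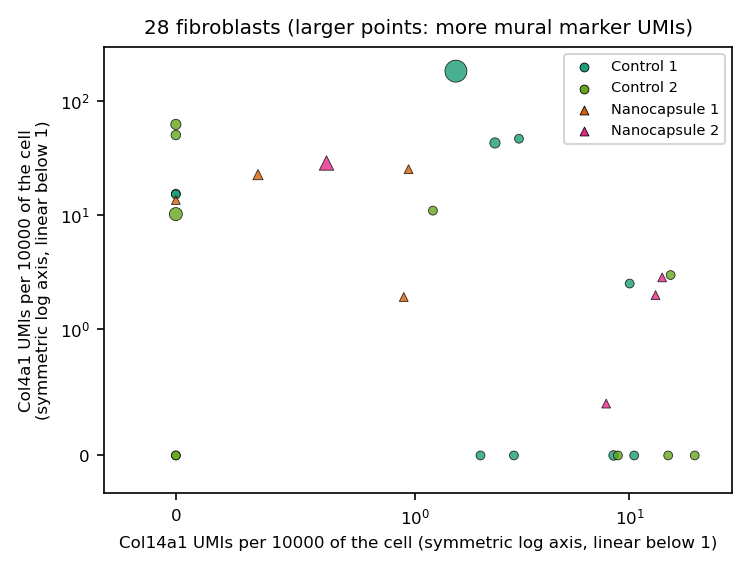
Col4a1 against Col14a1 in the 28 fibroblasts, each as UMIs per 10000 of the cell on symmetric log axes, with the symbol by library and the point area by mural marker UMIs. Cells rich in Col14a1 mostly lie low for Col4a1, and 1 cell of Control 1 lies above all others for Col4a1.

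In the fit over classes, which used the fibroblasts of the 2 Control libraries, 22 of the 27 collagens tested were higher in fibroblasts than in tumour cells and 1, Col4a4, was lower. Of all 12832 genes, 15.8% were higher and 18.4% lower. The 22 were all named genes found in fibroblasts except Col4a5, with Col6a6 in addition. The call for Col6a6 rests on 2 UMIs in 1 of the 28 fibroblasts, beside 33 UMIs in tumour cells. The median log2 fold change over the 27 was 8.19, against -0.44 over all genes. Col5a2 was higher by 13.27 on the log2 scale (SE 0.23, adjusted p = 1.06e-30), and Col16a1, the smallest of the called rises, by 3.63 (SE 0.29, adjusted p = 3.34e-12). Col4a5 differed by 0.20 (SE 0.86, adjusted p = 0.908). Against ambient RNA, 21 collagens were higher in fibroblasts, where 13.5% of all genes were, and 1 was lower, where 14.8% were. By the adjusted p alone, 22 were higher, and 3796 genes passed in either direction.

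The call for Col4a4 rests on few counts. The 2 Control fibroblast sums held 0 Col4a4 UMIs, and 3 UMIs would have come to 26.2 CPM in Control 1 and 21.97 in Control 2, above the 15.99 and 16.7 of tumour cells there. A level in fibroblasts equal to that of tumour cells was thus under the limit of each library. The call was lost without Control 1, without Control 2, without Nanocapsule 2 and with a tumour marker limit of 1/8 of the median.

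Endothelial cells held mostly basement membrane collagens. Col4a1 was at 6764, 4588, 8951 and 4779 CPM, and Col4a2 at 4541, 2650, 6463 and 2050. The pair made up 80.0 to 82.9% of their collagen UMIs. Col18a1 was at 1540, 712, 1830 and 664, and Col15a1 at 794, 674, 1258 and 693. The pair of Col15a1 and Col18a1 made up 15.5 to 16.9% of them, and the ratio of Col4a1 to Col4a2 ranged from 1.38 to 2.33. Col13a1, a membrane-spanning collagen, was at 143, 44.5, 57.2 and 339 and had 42 of its 61 UMIs in these 21 cells. A single cell of Nanocapsule 2 held 24 of the 42, which is the whole value of that library, and 12 of the 21 cells held none. The endothelial sum of Nanocapsule 2, from 2 cells, also held markers of T and natural killer cells at 806 CPM. In the endothelial sums of the other libraries these markers were at 0.

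The fit over classes used 1 endothelial library, Control 2, the only one with at least 10 such cells. It had no endothelial replicate, and the lone sum was assumed to vary like the other columns. Of the 27 collagens, 9 were higher in endothelial cells than in tumour cells and 0 lower, where 11.9% and 10.7% of all genes were. The 9 were Col4a1, Col4a2, Col5a2, Col6a1, Col6a3, Col8a1, Col13a1, Col15a1 and Col18a1. At an unadjusted p under 0.05 by edgeR, 2 were lower, Col16a1 and Col4a4, and 4273 genes passed in either direction. The Control 2 endothelial sum held fibroblast markers at 426 CPM, with 8 UMIs of Col3a1, 6 of Col5a2, 6 of Col6a3 and 2 of Col6a1. Those of Col3a1, Col6a3 and Col6a1 each came from 1 of the 21 cells, and those of Col5a2 from 3. The other 3 endothelial sums held none of the type I, III, V or VI genes. Their fibroblast markers were at 175 CPM in Control 1, 0 in Nanocapsule 1 and 141 in Nanocapsule 2. The part of fibroblast RNA in these calls was not tested.

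Against the same single endothelial library, fibroblasts were higher than endothelial cells for 15 collagens, among them Col1a1, Col1a2, Col3a1 and the type V genes, and lower for 0, where 3.31% and 4.02% of all genes were. At an unadjusted p under 0.05 by edgeR, 1 was lower, Col13a1, and 2459 genes passed in either direction. With the cells of all 4 libraries, 14 were higher and 3 lower (Col4a1, Col4a2 and Col13a1). Against ambient RNA, 8 collagens were higher in endothelial cells and 0 lower, where 11.2% and 8.22% of all genes were, and 3 were lower at an unadjusted p under 0.05, which 3932 genes passed.

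With the cells of all 4 libraries in every class, an alternative added after the data were seen, 21 collagens were tested among 10786 genes. Tumour cells then had 0 collagens above ambient RNA (background 14.3%) and macrophages 11 below (background 32.2%). Fibroblasts had 14 collagens above endothelial cells (background 7.61%) and 3 below (background 6.55%), Col4a1, Col4a2 and Col13a1. Endothelial cells had 3 collagens below tumour cells, Col16a1, Col4a4 and Col4a5, where 26.5% of all genes were below. No UMI of these 3 was counted in any endothelial cell. These 21 cells held 326060 UMIs in all, and 3 UMIs in their smallest library sum would come to 85.8 CPM. That is above the level of all 3 genes in tumour cells, so absence from endothelial cells is a weak statement.

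Macrophages were at the floor for every collagen. Their 431 cells held 74 collagen UMIs among 5326691, spread over 24 genes, and no collagen exceeded 3.95 CPM in any library. None of the 27 tested was higher than in ambient RNA, where 21.1% of all genes were, and 13 were lower, where 33.8% were. At an unadjusted p under 0.05 by edgeR, 15 were lower and 0 higher, and 8770 of the 12832 genes passed.

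Genes that act on collagen were taken from 5 lists. Fibroblasts were above tumour cells for most of them, in the fit with 15.8% of all genes higher and 18.4% lower. Of 20 maturation genes, which hydroxylate, fold or export the chains, 15 were higher and 1, P3h2, lower, with a median log2 fold change of 1.68. Serpinh1, the collagen chaperone, was at 3329, 1852, 1196 and 2582 CPM in fibroblasts and at 491 to 571 in tumour cells. P4hb, a subunit of prolyl hydroxylase, was at 849 to 1319 in fibroblasts and 646 to 737 in tumour cells. Other maturation genes were far lower in tumour cells: P4ha3, a prolyl hydroxylase subunit, averaged 0.0249 CPM there against 74.7 in fibroblasts, and Fkbp10, a folding enzyme of the secretory pathway, 16.9 against 225. These last 2 genes were chosen after their values were seen.

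Of the 12 genes of propeptide removal and cross-linking, 11 were tested and 10 were higher in fibroblasts. Pcolce, an enhancer of propeptide cleavage, was at 389 to 1035 in fibroblasts and 28.5 to 34.8 in tumour cells, and Loxl2, a lysyl oxidase-like enzyme, at 351 to 1145 and 15.5 to 31.7. Of 12 genes of collagen degradation, 11 were higher, with Mmp14, a membrane-bound collagenase, at 646 to 3183 in fibroblasts and 120 to 135 in tumour cells. Timp1, an inhibitor of matrix metalloproteinases, was at 1214, 381, 8758 and 824 in fibroblasts, highest in Nanocapsule 1. Of 8 receptors, 5 were higher, including Itgb1, the integrin beta chain shared by collagen receptors, at 467 to 1477 against 266 to 304, and Itga1, a collagen-binding alpha chain, at 58.6 to 778 against 9.71 to 12.4. Of 12 genes of fibroblast activation, 11 were higher, with Sparc, a collagen-binding matrix protein, at 10999 to 13848 against 334 to 395, and Fn1, fibronectin, at 3079 to 6692 against 31.1 to 56.2.

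The second question was whether collagen RNA differed between Nanocapsule and Control. In tumour cells it was not called for any collagen. Of the 44 genes, 31 passed the filter on low counts and 0 were called at an adjusted p of 0.05 by edgeR, where 0% of all 16252 genes were. DESeq2 called 0 collagens and 88 genes in all. At the unadjusted p, 4 of the 31 collagens and 1208 of the 16252 genes passed 0.05, and 25 of the 31 fold changes were below 0 and 6 above. The median log2 fold change was -0.13, against 0.0018 over all genes tested. The groups did not overlap for 10 collagens lower in Nanocapsule (32.3%, background 16.5%) and for 2 higher (6.45%, background 19%).

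The 6 collagens of tumour cells moved little. Their log2 fold changes were -0.01 for Col4a1 (SE 0.16), -0.02 for Col4a4 (SE 0.09), -0.04 for Col16a1 (SE 0.07), -0.06 for Col15a1 (SE 0.12), -0.09 for Col4a2 (SE 0.14) and -0.13 for Col4a5 (SE 0.10). Adjusted p ranged from 0.792 to 0.993 in this edgeR fit. Col4a5 was lower in both Nanocapsule libraries than in both Control libraries, and the other 5 overlapped. The summed collagen level of tumour cells was 120 ± 10.5 in Control and 110 ± 7.27 in Nanocapsule (SD, n = 2), with a two-sided exact permutation p of 0.667.

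The 4 collagens under an unadjusted p of 0.05 were low in level and are named for their p, outside the rule for named genes. Col2a1, the type II collagen of cartilage, was at 1.40 and 2.31 CPM in Control and at 0.817 and 0.957 in Nanocapsule, a log2 fold change of -1.04 (SE 0.26, adjusted p = 0.666). Col9a1, which coats type II fibrils, was at 2.34 and 3.90 against 1.38 and 1.77 (-0.97, SE 0.26, same adjusted p). Both genes were highest in Control 2, and their groups did not overlap. Col27a1 was at 2.90 and 2.74 against 2.09 and 2.18, and Col23a1 at 0.8499 and 1.22 against 1.36 and 1.95, the one of the 4 that was higher in Nanocapsule. None passed after adjustment.

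Col1a1 and Col1a2 had the most negative fold changes in tumour cells, -2.24 (SE 0.90) and -1.58 (SE 0.70), with adjusted p of 0.674 and 0.689 by edgeR. Col1a1 was at 1.36 CPM in Control 1, the library of the 12 barcodes described above, and at 0.225, 0.180 and 0.169 in the other 3 libraries. The part of these 12 barcodes in the fold changes was not tested. Without Control 2, where Control 1 is the lone control, Col1a1, Col1a2 and Col3a1 were called lower, with adjusted p of 0.00567, 0.0490 and 0.00035.

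**Figure D5:**
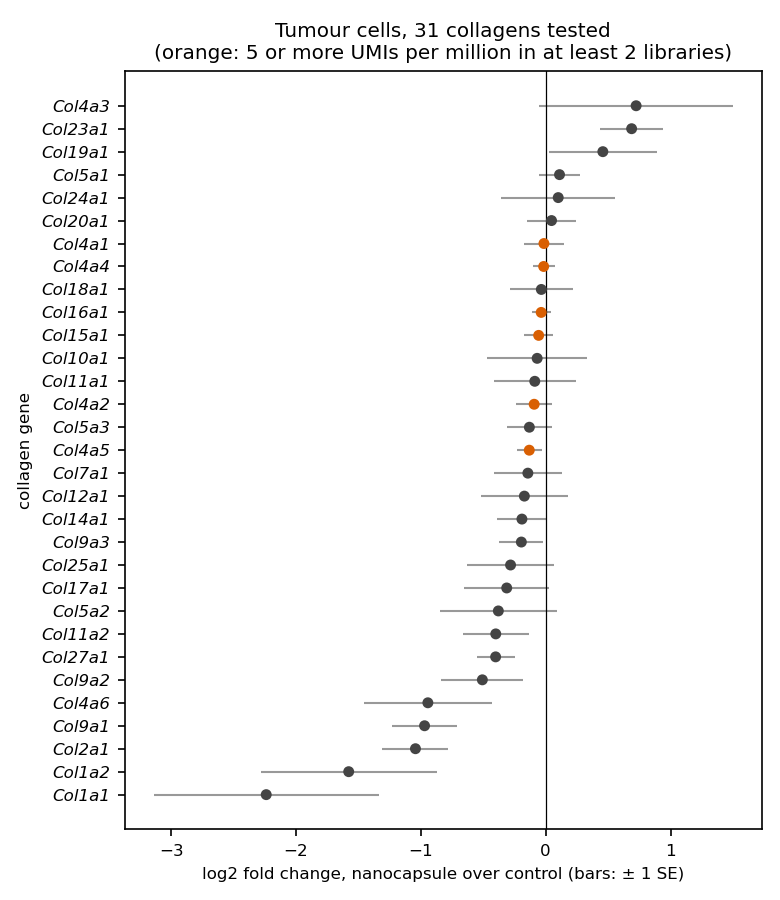
Log2 fold change of nanocapsule over control in tumour cells for the 31 collagens tested, with bars of 1 SE. The 6 main collagens, in orange, lie between -0.13 and -0.01, and Col1a1 and Col1a2 lie lowest with the widest bars among the falls.

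In fibroblasts the summed collagen level was 73639 ± 18888 CPM in Control and 47321 ± 5488 in Nanocapsule (SD, n = 2). Both Nanocapsule libraries were below both Control libraries. The two-sided exact permutation p was 0.333, the smallest that 2 libraries against 2 can give, so this design cannot reach 0.05. Without the fibroblast richest in Col4a1 in each library, the sums were 80544, 60530, 44140 and 57724, still without overlap and with the same p. With a cell minimum set in each library at an order of magnitude below its largest barcodes, in place of 1500 UMIs, the groups overlapped, with a log2 ratio of -0.58 in place of -0.64 and a p of 0.667 in the same exact test. The log2 ratio was -0.35 without Control 1 and -0.88 without Control 2. Of the 22 collagens at 5 CPM or more in at least 2 libraries, 7 were lower in Nanocapsule without overlap (31.8%, background 18.7%) and 0 higher (background 14.5%). They were Col1a1, Col1a2, Col5a1, Col8a1, Col16a1, Col18a1 and Col24a1. Col3a1 and the type VI genes overlapped. Without the fibroblast richest in Col4a1, which leaves 3 cells in each Nanocapsule library, 13 of the 22 were lower without overlap (59.1%, background 22%) and 0 higher (background 9.4%). Col1a1 was not among the 13, at 22274, 14275, 15039 and 13894 CPM, with Nanocapsule 1 above Control 2, and the 3 type VI genes were. Which genes separated the groups thus changed with 1 cell a library.

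Fibroblasts were 0.261 and 0.543% of cells in Control and 0.174 and 0.254% in Nanocapsule (exact permutation p = 0.333). The 95% Clopper-Pearson intervals of single libraries overlapped, from 0.125 to 0.479% in Control 1 and from 0.069 to 0.648% in Nanocapsule 2. The log2 ratio of the shares was -0.91, -0.36 with that other cell minimum, -0.28 without Control 2 and -1.34 without Control 1. In endothelial cells the summed level was 11366 ± 3439 in Control and 13564 ± 7106 in Nanocapsule (SD, n = 2, exact permutation p = 1). None of their 6 collagens separated the groups, where 15.3% of genes were higher and 19.5% lower. In macrophages the sum was 20.2 ± 13.2 and 5.98 ± 2.52 (SD, n = 2, exact permutation p = 0.333), from 74 UMIs in all. Its log2 ratio was -1.76, -0.86 without Control 2 and -3.78 with a tumour marker limit of 1/2 of the median. No collagen passed the filter for a fit in macrophages, where 9.9% of 8474 genes were higher and 23.2% lower in Nanocapsule without overlap.

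Whether the nanocapsule effect differed between fibroblasts and tumour cells was tested as an interaction in edgeR. Of 33 collagens tested, 0 were called, where 0.0654% of 15298 genes were, and 6 passed an unadjusted p of 0.05, as did 453 of all genes. The test rests on 4 fibroblasts in each Nanocapsule library. Without Control 2, 3 collagens were called, without Nanocapsule 1 it was 1 and without Nanocapsule 2 it was 2. Col18a1 had the smallest adjusted p, 0.204. Of the 5 lists, the one gene called was Ccn2, a matrix protein induced by mechanical load and TGF-beta. It was at 778, 586, 89.7 and 44.5 CPM in fibroblasts and at 6.42, 5.56, 14.1 and 8.85 in tumour cells.

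Genes of the 5 lists were not called between Nanocapsule and Control in tumour cells or in macrophages. At an unadjusted p of 0.05 in tumour cells, 0 of 18 maturation genes tested passed, 1 of 9 genes of cross-linking, 0 of 8 of degradation, 1 of 7 receptors and 3 of 11 of fibroblast activation, beside 1208 of all 16252 genes. Serpinh1 was at 528, 571, 502 and 491 CPM in tumour cells, P4hb at 646, 687, 687 and 737, and Itgb1 at 276, 266, 304 and 294. Mmp14 was at 122, 135, 120 and 134, and Pcolce at 30.1, 34.0, 28.5 and 34.8. For Serpinh1 the 2 Nanocapsule values were below both Control values, for Itgb1 they were above, and for Mmp14 and Pcolce the groups overlapped. Timp2, another metalloproteinase inhibitor, was at 154, 147, 150 and 151, and Fn1 at 47.4, 31.1, 56.2 and 47.3, with overlap in both. Loxl2 was at 26.1, 15.5, 31.7 and 26.3, with the lower Nanocapsule value just above the higher Control value. Ddr2, a collagen receptor kinase, was at 63.8, 63.8, 73.6 and 84.1, and Sparc at 340, 334, 389 and 395, both above Control in 2 of 2 Nanocapsule libraries and both with an adjusted p of 0.666 by edgeR.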

How the data were processed

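The authors deposited 1 matrix of raw UMI counts per library, with all barcodes. Per the labels, libraries were 10x Genomics 3-prime v2 and mapped to mm10. The submitters' processing notes name Cell Ranger 2.1.1 and the matrix headers Cell Ranger 4, so the version is uncertain. Barcodes with at least 1500 UMIs, 200 genes and at most 20% mitochondrial UMIs were cells. A cell took the class with the most marker UMIs (at least 3 markers, 5 UMIs and 10 per 10000 UMIs) if its tumour markers were under 1/4 of the library median. Cells at or above that limit with no other class were tumour cells, and those with another class were left out. No doublet caller was run. UMIs were summed per library and class and fitted with edgeR 4.0.16 in R 4.3.3 (TMM, filterByExpr, robust quasi-likelihood, library as block between classes, columns of at least 10 cells in the fit over classes), with Benjamini-Hochberg adjustment over all genes at 0.05. The interaction fit used the fibroblast and tumour sums of all 4 libraries, with 4 fibroblasts in each Nanocapsule library. Above ambient RNA meant, besides the adjusted p, a level above ambient in each library of the class. DESeq2 1.42.0 was an alternative. Sums per class and shares of cells were compared by two-sided exact permutation over libraries.

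In data simulated from the tumour sums, edgeR recovered 88% of abundant genes changed 2-fold, with 9 false calls. In the simulated fit of fibroblasts against tumour cells it recovered 0% at 2-fold and 81% at 8-fold, with 3 false calls. The spread between libraries was set by hand, at dispersions of 0.02 and 0.2. These shares therefore do not give the power of the fits to the real data. Collagens were named at 5 CPM (UMIs per 1000000) or more in at least 2 libraries of a class, or if called between Nanocapsule and Control, and list genes as the 2 most abundant. The collagens, lists, classes and rules were chosen with earlier results of these data known. All 44 collagens matched release 21 of the GENCODE annotation by gene ID. RefSeq promoter windows run from 250 bases before to 50 after a start.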

Additional observations from a re-analysis of the deposited data

Results flagged for a closer look

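The nanocapsule effect on Ccn2 differed between fibroblasts and tumour cells by -4.35 on the log2 scale in edgeR's interaction test (adjusted p = 6.48e-09). In fibroblasts it was lower in 2 of 2 Nanocapsule libraries, at 89.7 and 44.5 CPM against 778 and 586, and in tumour cells it was higher in 2 of 2, at 14.1 and 8.85 against 6.42 and 5.56. The Nanocapsule fibroblasts were 4 cells in each library. No collagen was called in this test, and 6 of 33 passed an unadjusted p of 0.05.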

How the results depend on the processing

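Replicate numbers are only names in the labels. The deviations of same-numbered libraries correlated at 0.44 over genes in tumour cells and 0.21 in macrophages, with 2 pairs. With the replicate number as a block, 2 collagens were called in tumour cells instead of 0 (Col9a1, adjusted p = 0.0258, and Col2a1, adjusted p = 0.0418, by edgeR) and 283 genes in all. Leaving out 1 library at a time, collagens called in tumour cells ranged from 0 to 3, those lower in fibroblasts than in tumour cells from 0 to 1, those lower in fibroblasts than in endothelial cells from 0 to 4 (4 without Control 1), and those called in the interaction from 0 to 3. With a tumour marker limit of 1/8 of the median, 0 collagens were lower in fibroblasts than in tumour cells, and with 1/2, 3 were lower in tumour cells than in macrophages. With all libraries, 5 were above ambient RNA in endothelial cells, 3 lower in endothelial than in tumour cells and 3 lower in fibroblasts than in endothelial cells.

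The log2 ratio of Nanocapsule to Control turned sign for several values with no call. The summed endothelial level ranged from -0.41 to 0.71 without 1 library, including -0.02. The share of tumour cells ranged from -0.18 to 0.14, including 0.01. The share of macrophages ranged from -0.67 to 0.68, including 0.39, and was 0.60 with an order-of-magnitude cell minimum and 0.0062 with 3000 UMIs. Without cells with a stromal marker UMI, Col4a4 was at 0.021 and Col15a1 at 0.035. Without 1 library, Col4a4 ranged from -0.11 to 0.063 (0.0029 without Control 1), Col15a1 from -0.15 to 0.042 (0.019 without Nanocapsule 2), Col16a1 from -0.083 to 0.0040, Col4a1 from -0.24 to 0.17 (0.12 without Control 2) and Col4a2 from -0.28 to 0.12. The cause of these changes was not tested.

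Genes called in tumour cells numbered 0, 88 by DESeq2 and 9 with no filter, and in macrophages 0, 7 and 68. Separate nanocapsule fits within fibroblasts and within endothelial cells were not run, for want of 10 cells in every library. The interaction fit took the fibroblast sums without that minimum.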
